A study of Mus musculus with 2 samples.

Results

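Transcript models classed as keeping the 3′ end of an annotated transcript but lacking 1 or more of its first exons were described in long-read RNA sequencing of mouse heart. Each model is a distinct exon structure with a whole-number count of reads. A model counted here belonged to an annotated gene, carried the class incomplete splice match with the subtype Suffix, which is given to models whose splice junctions match the 3′ part of a longer transcript, and had 5 or more reads in at least 1 library. There were 1832 such models, told apart by chromosome, strand and intron chain (the ordered set of introns), of 93096 different intron chains in both libraries together. They are called members below. Both libraries, the 2 replicates of 1 group, were made from 2 µg of RNA from the heart of B6CASTF1/J hybrid mice (female, age 2 months). The labels numbered the animals 3 and 4 for replicates 1 and 2, but the library text named animal 3 for both and the donor identifier was shared, so the spread between the replicates may be technical. Replicate 1 had 859191 reads on annotated genes and replicate 2 had 707758. Cardiac markers were present in both libraries (Myh6 with 26157 and 24642 reads, Ryr2 with 108 and 98). Of the skeletal muscle genes checked, Acta1 had 380 and 316 reads, while Myh4 and Tnnt3 had 0. The lung genes Sftpc and Scgb1a1 had 0 reads, and the red blood cell gene Hba-a1 had 15180 and 11132.

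As background, a spliced messenger RNA runs from a cap at the 5′ end to a poly(A) tail at the 3′ end, and the exons nearest the cap usually hold the start codon and the first part of the coding sequence. Programs that build models from long reads compare the junctions of each read with the annotation. A read whose junctions match a whole annotated transcript is Known, one that matches its 5′ part is a Prefix, and one that matches its 3′ part is a Suffix. A Suffix model may be a transcript that starts at a later exon or an incomplete copy of a longer one, and the deposited counts cannot tell these apart.

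The places where the most-read members began are shown by the sequence of their annotated parent transcript, since the bases to either side are what a reader needs to find the same point in other data. In each line the 30 bases in lower case are the last ones absent from the model and the 30 in capitals are its first ones, read from the GENCODE M21 transcripts on mm10. All 5 windows lie within the coding sequence.
Atp5b exon 9, first base at position 128089041 of chromosome 10, plus strand: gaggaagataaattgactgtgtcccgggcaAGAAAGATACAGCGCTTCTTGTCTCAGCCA
Ndufa4 exon 3, position 11905262 of chromosome 6, minus strand: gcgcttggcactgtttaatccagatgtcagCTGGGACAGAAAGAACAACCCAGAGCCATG
Hrc exon 3, position 45337887 of chromosome 7, plus strand: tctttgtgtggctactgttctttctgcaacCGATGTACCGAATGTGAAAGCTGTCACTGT
Ndufs7 exon 7, position 80255924 of chromosome 10, plus strand: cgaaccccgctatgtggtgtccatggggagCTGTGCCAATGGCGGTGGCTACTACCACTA
Pink1 exon 4, position 138318078 of chromosome 4, minus strand: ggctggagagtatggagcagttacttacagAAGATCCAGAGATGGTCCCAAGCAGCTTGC
The windows of Ndufa4, Hrc, Ndufs7 and Pink1 cross the junction between the last missing exon and the first kept one. The window of Atp5b lies inside exon 9, 84 bases from its 5′ edge, at the annotated start of another Atp5b transcript. All 5 starts were at the same base in both libraries.

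The members were chosen by their read counts, so their levels are given as a description. Replicate 1 had 1479 members with 5 or more reads and replicate 2 had 1315, and 962 reached 5 reads in both. They held 45034 and 35187 reads, 5.24% and 4.97% of the reads of annotated genes. Just inside the threshold, 298 and 262 Suffix models had 5 reads, and just outside it 499 and 442 had 4. Suffix models of any count took 7.58% of reads in replicate 1 (Wilson 95% interval 7.52 to 7.63, counting error only) and 7.64% in replicate 2 (7.57 to 7.70), against 76.0% and 75.7% for Known models. Of the 15807 and 14917 Suffix models, 66.8% and 67.8% had 1 read. Models that kept the 5′ end were fewer. Prefix models took 0.470% and 0.476% of reads, and 103 and 100 of them had 5 or more.

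The members fell in 980 of the 15848 annotated genes with a read (6.18%), and 1826 of them were in protein-coding genes. There was 1 member in each of 684 genes, and 68 genes had 5 or more. The counts were uneven. The median member had 9 reads in replicate 1 and 8 in replicate 2, while the 10 most-read members held 37.0% and 34.8% of member reads.

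The most-read members belonged to energy metabolism, contraction and calcium storage. Atp5b, the catalytic beta subunit of ATP synthase, led with 3838 reads in replicate 1 and 2817 in replicate 2 on a model of 2 exons that lacked 8 of 10. Ndufa4, a small respiratory chain subunit, had 2954 and 2108 reads on 2 of 4 exons. Hrc, the histidine-rich calcium-binding protein of the sarcoplasmic reticulum, had 1816 and 1109 reads on 4 of 6 exons. The lost part of Hrc was long, 2156 of 2411 bases, because the 2 missing exons hold most of the transcript. Myh6, the alpha myosin heavy chain, had 1252 and 1300 reads on a model of 38 exons that lacked 1. It was the 1 leading member with more reads in the smaller library, replicate 2.

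Among the other leading members, 3 lacked 1 exon and, by their deposited starts, kept the annotated start codon. They belonged to Atp5f1 (1273 and 998 reads) and Atp5j (1152 and 854), both of the peripheral stalk of ATP synthase, and to Ndufa13 (1190 and 823), a subunit of respiratory complex I. Ndufs7, an iron-sulfur subunit of the same complex, had 1282 and 897 reads on 2 of 8 exons. Pink1, a kinase that marks damaged mitochondria, had 844 and 624 reads on 5 of 8 exons. The start codon was lost in the leading members of Atp5b, Ndufa4, Hrc, Ndufs7 and Pink1.

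**Figure D1:**
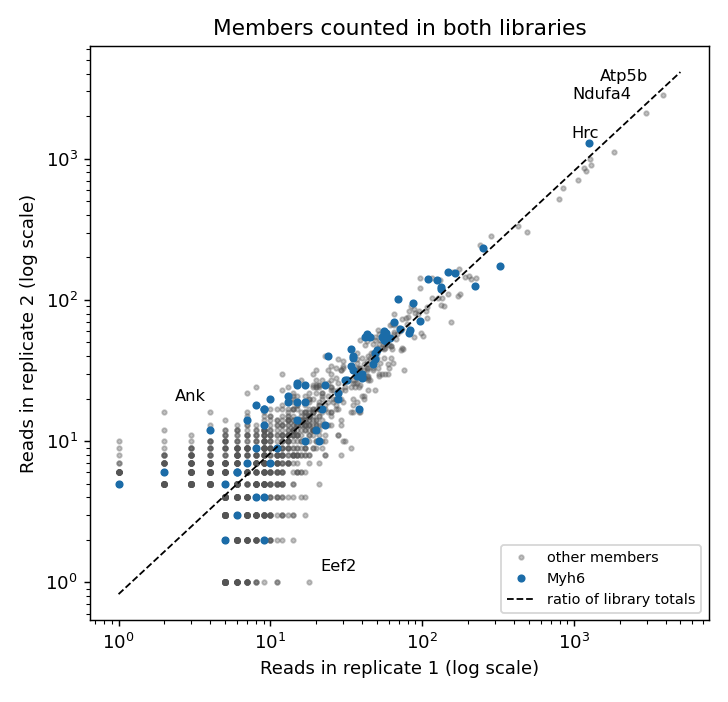
Reads of each member in replicate 1 and replicate 2, on log axes, for the 1732 members counted as Suffix in both libraries. Points are models, Myh6 models are blue, and the dashed line is the ratio of the library totals; Atp5b is highest at 3838 and 2817 reads, and Ank (2 and 16) and Eef2 (18 and 1) lie far from the line.

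The structures recurred. Of the 1832 members, 1732 were read as Suffix in both libraries, 43 were read in both but under another class in 1 of them, and 57 were read in 1 library, with at most 7 reads in replicate 1 and 8 in replicate 2. A read in the other library was found for 1440 of 1479 members of replicate 1 (97.4%) and for 1297 of 1315 of replicate 2 (98.6%). The same share over all spliced models with 5 or more reads was 98.7% and 99.3%. The class itself was not always stable. A Myh6 chain of 38 exons had 473 reads as Suffix in replicate 1 and 478 reads in replicate 2 under the class NIC, a new combination of annotated splice sites. A Hnrnpa2b1 chain of 2 exons had 131 reads as Suffix in replicate 2 and 217 in replicate 1 under the subtype Both, given to models that match as Suffix and as Prefix.

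An annotated parent, a GENCODE transcript of the same gene whose introns end with those of the member, was found for 1685 members and not for 147. Where several fitted, the one with most Known reads was used, and 822 members had 1 candidate. Members lacked between 1 and 188 exons with a median of 4 and quartiles of 1 and 9. The first exon alone was missing in 430 (25.5%), 2 exons were missing in 199 (11.8%) and 10 or more in 398 (23.6%). At least as many exons were missing as kept in 704 (41.8%). The median member kept 6 exons, and the median share of parent bases lying 5′ of its start was 28.9% in replicate 1 and 28.7% in replicate 2.

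The parents are set beside the annotated spliced transcripts that were themselves read. Their median was 2914 bases and 12 exons, against 2540 bases and 8 exons for the 10249 annotated spliced transcripts with 5 or more reads. Part of the gap in exons follows from the definition, since a spliced Suffix model needs a parent of at least 3 exons and each further exon adds a possible Suffix chain. Long transcripts count more than once among the parents, because 1 gene can have many members. On the genome the gap was small, with a median span of 22908.5 bases for the 952 genes of members with a parent and 21674.5 for the 8196 genes of those transcripts.

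The 5 members seen in both libraries with most missing exons were in Ttn, Ryr2 and Lama5. Ttn, which encodes the spring protein titin, had 2 members. They lacked 186 and 188 of the 192 exons of their parent and had 58 and 56 reads and 12 and 13 reads. Ryr2, the calcium release channel of the sarcoplasmic reticulum, had members that lacked 93 and 89 of 105 exons, with 5 and 3 reads and 8 and 1 reads. Lama5, a laminin chain of basement membranes, had a member that lacked 77 of 79 exons, with 1 and 6 reads. All Known models of Ttn together had 2 reads in replicate 1 and 0 in replicate 2, and Ryr2 had 0 in both.

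**Figure D2:**
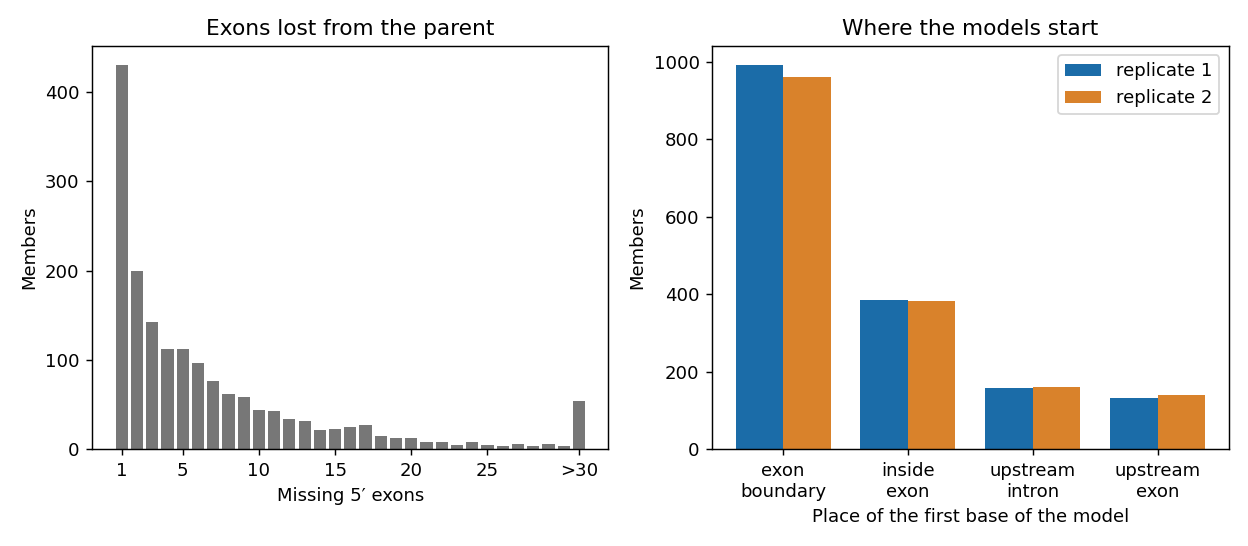
Left, members by the number of 5′ exons missing from the parent, with all above 30 in the last bar; right, members by the place of their first base in each library. The bar for 1 missing exon holds 430 members, and most starts lie at an exon boundary (991 in replicate 1, 960 in replicate 2).

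The first base of a model was compared with the parent exon in which it begins. It lay exactly at the 5′ edge of that exon in 991 of 1666 members in replicate 1 (59.5%) and 960 of 1642 in replicate 2 (58.5%). It lay inside the exon in 385 and 383, in the intron upstream in 157 and 160, and beyond that intron, in an upstream exon or further, in 133 and 139. An exon edge or an annotated transcript start of the gene accounted for 84.0% and 82.6% of starts. How the deposited starts were set is not given in the sources used here, so a start is not read as the first base of a read. Starts were the same base in both libraries for 1256 of the 1623 members placed in both (77.4%). The matching by introns did not use the start. Starts set to annotated positions could still coincide for models with the same introns, and this was not tested.

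Of members on a coding parent with an annotated start codon, 254 of 1625 in replicate 1 (15.6%) and 253 of 1601 in replicate 2 (15.8%) reached upstream of that codon. They held 21.7% and 22.8% of the reads of these members. Only the deposited start of the model decided this. At the other end, 1264 of 1666 and 1232 of 1642 members ended within 50 bases of the parent's end, 281 and 294 ended more than 50 bases short of it, and 121 and 116 ran more than 50 bases beyond.

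By their deposited coordinates, members that began in an upstream exon left the intron between it and the next exon unspliced. They counted as Suffix because the class rests on junctions, and 24 of the 104 found in both libraries lacked no base of the parent. Of the starts beyond the intron, 117 of 133 in replicate 1 and 120 of 139 in replicate 2 were exactly annotated transcript starts of the gene. Whether reads cross the intron was not tested. A start at a given distance upstream passes a short intron but not a long one, so the definition itself favors short introns here. In replicates 1 and 2 the median intron that these members ran through was 195 and 191 bases. For introns upstream of members that began at an exon edge the median was 1096 and 1107, a gap in part set by the definition. The best-read example was Myl7, the atrial regulatory light chain of myosin, with 97 reads in replicate 1 and 144 in replicate 2. It started 243 bases upstream of exon 2, beyond an intron of 221 bases. The models of Eif4g2, a translation initiation factor (84 and 90 reads, intron of 138 bases), and Atp5g3, a subunit of the ATP synthase ring (90 and 81 reads, intron of 191 bases), also spanned the first intron. Serping1, the C1 inhibitor of complement (132 and 92 reads), began 314 bases upstream, and Dgat2, an enzyme of triglyceride synthesis (96 and 121 reads), 280 bases upstream, both inside the intron. Each of these 5 starts matched an annotated transcript start of its gene.

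For 13 members the start was the RefSeq gene start in both libraries, to the base, and 7 of these began in an upstream exon. The promoters of 2 cardiac genes are shown, Myl7 and Nppa, the gene of atrial natriuretic peptide. By its deposited coordinates, the member of each covers the whole parent with the first intron left in. Whether its reads do so was not tested. The 100 bases before the start are in lower case and the first 30 bases of the model in capitals, from RefSeq on GRCm38.p6, the same build.
Myl7, chr11:5898753-5898882, minus strand: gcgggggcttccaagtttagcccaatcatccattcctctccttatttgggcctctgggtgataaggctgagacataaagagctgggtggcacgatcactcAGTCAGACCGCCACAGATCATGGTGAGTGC
Nppa, chr4:148000622-148000751, plus strand: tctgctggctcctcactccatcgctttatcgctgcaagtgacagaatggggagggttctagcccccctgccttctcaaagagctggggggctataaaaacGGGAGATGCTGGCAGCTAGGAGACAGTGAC
Exon 1 of Myl7 is 22 bases long, so the last 8 capitals are the first bases of the intron that the model leaves in. The Nppa member had 14 and 17 reads, against 1393 and 1382 Known reads, and the intron left in by its model was 103 bases. The letters TATAAA, a common core promoter motif, begin 9 bases before the Nppa start. They were searched on the sense strand from 40 to 16 bases before the start, where 1 of the 13 members and 1.99% of 32851 RefSeq promoters had them. That member was in Mknk2 (5 and 3 reads), with the motif 30 bases before its start. The Nppa motif lies outside this window. On either strand anywhere in the 250 bases before and 50 after the start, 13.6% of promoters had TATAAA.

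Member reads exceeded the summed Known reads of the gene in both libraries for 195 of the 980 genes (19.9%), in 237 genes in replicate 1 and 236 in replicate 2. These counts follow from the read counts that chose the members. There were 64 genes with 0 Known reads in both libraries, and 107 had 10 or more member reads in each. A member was assigned to 1 gene, that of its better-read library, together with its reads in the other. Gm45837 and Gm28035 thus exceeded in replicate 2 with 29 and 33 member reads. The Suffix reads deposited under these genes there were 0 and 2. The reference transcript (the annotated transcript with most Known reads, or else the parent of the best-read member) had a median of 3668 bases in 191 of the 195 genes, where one was found, and 2562 in 785 other genes with members. It was 2260 bases in 2868 genes with at least 20 Known reads in each library and no member. The measure is not alike in these groups. Genes with 0 Known reads could take only the parent of a member. A few Known reads could pick a short transcript, as for Ttn (2159 bases and 12 exons) and Tnnt2 (292 bases and 1 exon).

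The leading gene was Ndufa4 (chr6:11900292-11907497, minus strand), with 2962 member and 1640 Known reads in replicate 1 and 2114 and 1148 in replicate 2. Members were 64.4% and 64.8% of this total. Hrc (chr7:45335290-45338974, plus strand) had 1888 member and 57 Known reads in replicate 1 and 1153 and 38 in replicate 2, so that members were 97.1% and 96.8%. In both genes the shares were nearly equal in both libraries.

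Atp5f1 and Ndufa13 had no Known read in either library, against 1340 and 1063 member reads for Atp5f1 and 1190 and 823 for Ndufa13. Their annotated parents carry 486 and 678 bases more at the 5′ end than the leading members, which by their deposited starts kept the start codon. Atp5j had 1216 member and 104 Known reads in replicate 1 and 890 and 85 in replicate 2. Ndufs7 members took 66.3% and 65.9% of member plus Known reads and Pink1 members 67.5% and 61.1% (929 and 693 member reads). Tecr, an enzyme of long-chain fatty acid elongation, stood at 80.8% and 80.2%, and Myl4, the atrial essential light chain, at 67.3% and 65.4%.

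**Figure D3:**
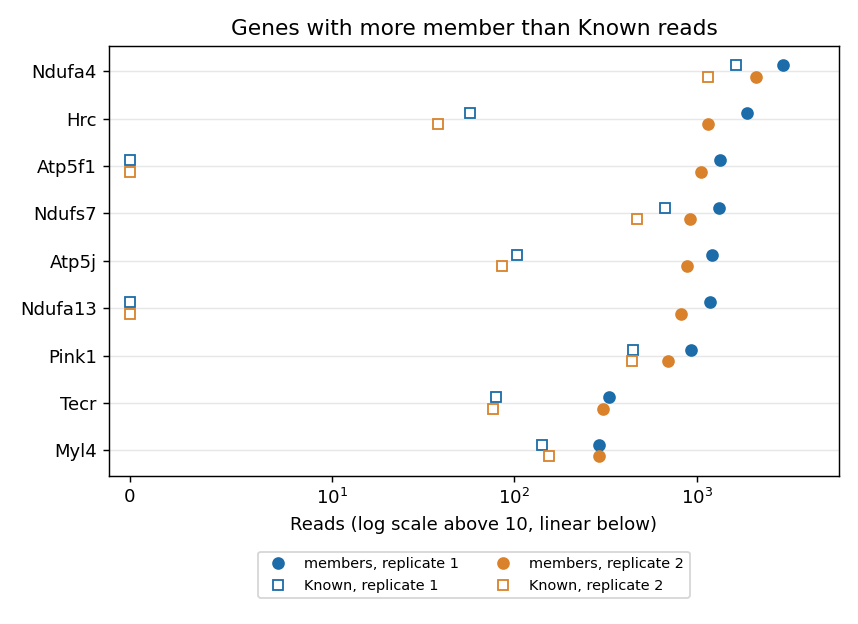
Member reads (filled circles) and Known reads (open squares) of 9 of the 10 genes with most member reads among those where members exceeded Known in both libraries, on an axis that is logarithmic above 10 reads. Atp5f1 and Ndufa13 have 0 Known reads, and Ndufa4 has 2962 member and 1640 Known reads in replicate 1.

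Myh6 (chr14:54941921-54966927, minus strand) had the most members, 85, with 5488 and 4801 reads. It was not among the exceeding genes, with 13416 and 12527 Known reads. Of its members, 39 had an annotated parent and 46 (1379 and 955 reads) did not. The parent of 37 was the 39-exon transcript, and every number of missing exons from 1 to 37 occurred once. Reads were unevenly spread over this series. The highest single number was 1 missing exon (1252 of 4109 and 1300 of 3846 reads with a parent), and the median over these reads was 14 missing exons in replicate 1 and 12 in replicate 2. Further high points lay at 14 (163 and 154), 25 (252 and 233), 35 (324 and 173) and 37 (221 and 126), while 5 missing exons had 9 and 4 reads. At 35, replicate 1 stood well above replicate 2, the smaller library. The first base was the same in both libraries for 27 of the 39 members with a parent.

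**Figure D4:**
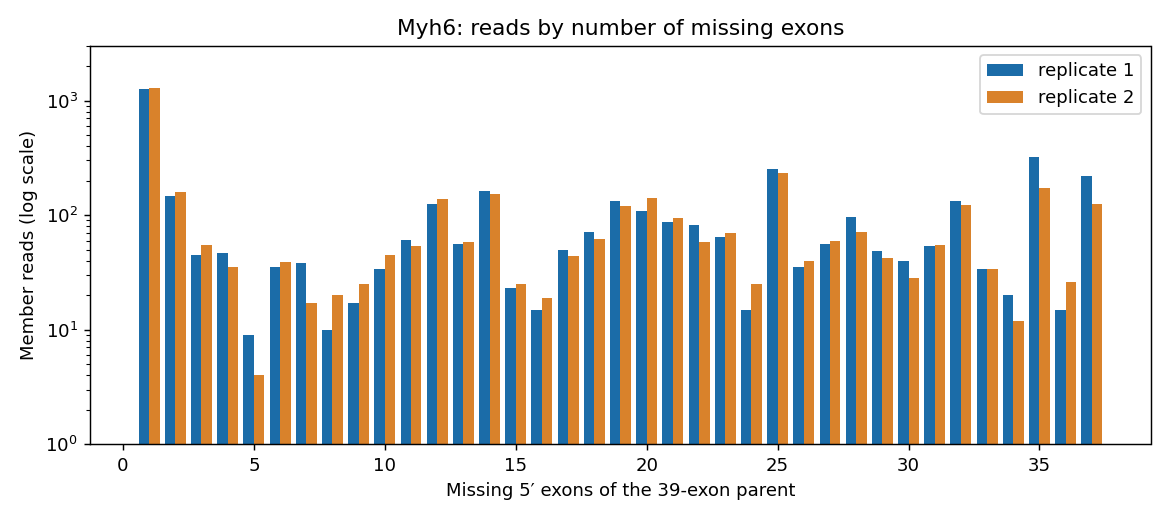
Reads of Myh6 members by the number of 5′ exons missing from the 39-exon parent, on a log axis, for each library. All 37 positions have a member in both libraries, from 1252 and 1300 reads at 1 missing exon to 9 and 4 reads at 5.

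Other genes showed similar series. Atp2a2, the pump that returns calcium to the sarcoplasmic reticulum, had members at 19 different numbers of missing exons, from 1 to 19 of 21 (724 and 738 reads). Ogdh, a subunit of the oxoglutarate dehydrogenase complex, had 15 from 1 to 20 of 23 (301 and 259 reads). Mybpc3, cardiac myosin-binding protein C, also had 15 but from 13 to 31 of 34 (166 and 153 reads), so that no member with a parent lacked fewer than 13 exons. Its 18 members had 194 and 175 reads, against 0 Known reads in both libraries.

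The share of Suffix reads in Suffix plus Known reads was set against transcript size over 3612 spliced genes that had 20 or more of these reads in both libraries. All Suffix models entered here, so low-count models are included, and the values are a description across genes, which are not independent replicates. Size was that of the reference transcript above, so Ttn entered with 12 exons and Tnnt2, with 1 exon, was left out. The median gene had 3.01% in replicate 1 and 3.23% in replicate 2. By number of exons, the share pooled over genes was 5.30% and 5.13% up to 5 exons (1051 genes), 9.09% and 8.67% above 5 and up to 10 (1256 genes) and 8.34% and 8.30% above 10 and up to 20 (1019 genes), so that it did not rise at each step. It was 18.5% and 18% above 20 and up to 30 (223 genes), 32.2% and 31.2% above 30 and up to 50 (53 genes) and 41.9% and 43.1% above 50 (10 genes). The median gene of the same 6 classes had 0% and 0%, 2.70% and 2.94%, 5.20% and 5.22%, 13.8% and 13.6%, 39% and 37.3%, and 82.4% and 85.0%. The last class rests on 10 genes, and the rank correlations moved little without it (rho with exon number over both libraries 0.549 with it and 0.546 without). By length, the median was 0.676% and 0.542% up to 1000 bases (417 genes) and 10.6% in both libraries above 6000 bases (154 genes). Spearman's rho was 0.505 and 0.497 with exon number, 0.316 and 0.312 with transcript length, 0.271 and 0.259 with gene span, and -0.063 and -0.019 with the number of reads. The relation with exon number is in part built in, because a 2-exon transcript can have no spliced Suffix model and the number of possible Suffix chains grows with the exons. Shares are bounded by the reads per gene, which all 4 relations have in common.

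**Figure D5:**
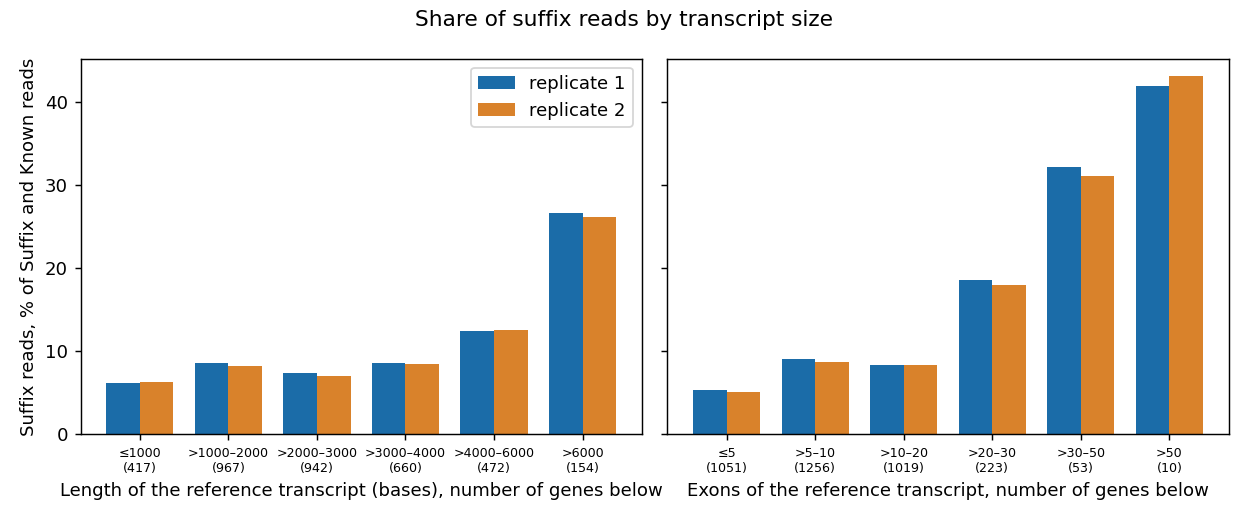
Suffix reads as a percentage of Suffix and Known reads, pooled over the genes of each class, by length (left) and exon number (right) of the reference transcript, for each library, with the number of genes in parentheses. The pooled share is 6.16% and 6.27% up to 1000 bases and 26.7% and 26.2% above 6000; the class above 50 exons holds 10 genes.

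Gene lists for heart functions, chosen with earlier results of these data known, are given as counts beside the 6.18% of all genes with a read that had a member. A gene with more reads reaches 5 reads on a Suffix model more easily. Of 30 sarcomere and Z-disc genes with reads, 24 had members, 200 in all, and in 7 members exceeded Known reads in both libraries. The Suffix share of the list was 19.3% and 19.0% pooled over its genes, and the median gene had 29.5% and 28.3%, beside a median of 3.01% and 3.23% over the 3612 genes above. Beside Ttn and Mybpc3 these included the thin filament regulator Tnnt2 (234 and 153 member reads against 1 and 0 Known), Cmya5 (38 and 33 against 1 and 1), Alpk3 (16 and 28 against 6 and 3) and Xirp2 (14 and 22 against 1 and 1). After Myh6 the most member reads were in the Z-disc crosslinker Actn2 (596 and 385 against 1375 and 1270), the ventricular light chain Myl3 (506 and 398 against 3732 and 3103) and the cardiac actin Actc1 (303 and 248 against 2059 and 1572).

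Among 21 calcium and ion channel genes, 11 had members and 4 exceeded Known reads. These included Hrc, Ryr2 and the calcium channel Cacna1c (5 and 3 against 0 and 0). Trdn, the junctional protein triadin, had 66 and 76 member and 261 and 235 Known reads. Of 18 long membrane and cytoskeleton genes, 5 had members and 4 of these exceeded: the spectrin Sptbn1 (42 and 31 against 12 and 15), the talin Tln1 (30 and 23 against 14 and 9), the desmosome gene Dsp (20 and 24 against 5 and 7) and the plectin gene Plec (8 and 2 against 0 and 0). The fifth, the laminin Lamb2, had 61 and 44 member and 130 and 150 Known reads.

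All 24 mitochondrial energy genes of the list had members, 143 in all with 6113 and 4666 reads, and in none did they exceed Known reads. This holds for the listed genes only. Ndufa4, Ndufs7, Ndufa13, Atp5f1 and Atp5j, whose members exceeded Known reads as given above, were not on the list. Of the listed genes Atp5b had the most, 4100 and 3034 member reads against 4652 and 4339 Known. Ogdh (301 and 259 against 745 and 788) and the ATP synthase alpha subunit Atp5a1 (249 and 231 against 5100 and 4526) were among the next. The Suffix share of this list was 9.6% and 8.84% pooled over its genes, and the median gene had 3.10% and 3.28%. Of 17 chromatin, RNA and translation genes with reads, 7 had members and 1 exceeded, the dynein heavy chain Dync1h1 (15 and 13 against 0 and 0). The best-read of these were Eif4g2 (109 and 114 against 651 and 598), Eef2 (123 and 69 against 165 and 159) and the chaperones Hsp90ab1 (87 and 70 against 1090 and 841) and Hspa8 (79 and 48 against 1484 and 1006). Of 17 matrix and vessel genes, 6 had members and 1 exceeded, the von Willebrand factor gene Vwf (14 and 17 against 6 and 7). Sparc, a matrix glycoprotein, had 65 and 44 member and 197 and 129 Known reads, the basement membrane collagen Col4a1 58 and 45 against 106 and 100, and the endothelial receptor Eng 10 and 14 against 155 and 148. The median number of missing exons ran from 5 for the chromatin, RNA and translation list to 29 for the matrix and vessel list. A high Suffix share was not particular to the sarcomere list. The median gene had 30% and 26.2% in the calcium list and 94.9% and 91.1% in the long membrane and cytoskeleton list. It had 25% and 17.8% in the chromatin, RNA and translation list and 30.8% and 29.5% in the matrix and vessel list. In bulk tissue, fewer cells of a type and less RNA per cell cannot be told apart.

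Members were compared between the libraries in a test over all spliced models of annotated genes, matched by intron chain whatever their class. The two-sided exact binomial test asks whether a model's reads depart from the ratio of the library totals, and its p-values cover counting error only. Of 10617 models with at least 10 reads in total, 0.0942% (10) were called on a 2-fold or larger difference together with a Benjamini-Hochberg adjusted p under 0.05, and 795 had an unadjusted p below 0.05. Of the 1267 members tested, 2 were called and 106 had an unadjusted p below 0.05. Both called members were members through 1 library alone, so that their difference is in part set by how they were chosen. Ank, which encodes a pyrophosphate transporter, had 2 and 16 reads on a model of 9 exons (log2 ratio of replicate 2 to replicate 1 of 3.00, adjusted exact p = 0.0268). Eef2, a translation elongation factor, had 18 and 1 reads on a model of 6 exons (log2 ratio -3.34, adjusted exact p = 0.0353). None of the 962 members with 5 or more reads in both was called by this test, and 13 of them had an adjusted p below 0.05. By the exact test of edgeR, in which the coefficient of variation between replicates was set to 0.1, no member was called and 53 of the 1267 had an unadjusted p below 0.05. The share over all models is not given for this test, so these counts are not read as a result about members.

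Without the 2-fold minimum, 0.782% of all models and 15 of the members passed, 4 higher and 11 lower in replicate 2. Reads of the leading Hrc member were lower in replicate 2 (log2 ratio -0.43, adjusted exact p = 5.95e-12), as were those of Ndufa4 (-0.21), Atp5b (-0.17) and Ndufs7 (-0.24). The Myh6 member that lacked 1 exon was higher (0.33, adjusted exact p = 4.12e-06), while the Myh6 member that lacked 35 was lower (-0.62, adjusted exact p = 0.0010). Myl7 was higher (0.85, adjusted exact p = 0.0020). By the edgeR exact test none of these 7 members passed. The median log2 ratio was 0.05 over the members and 0.05 over all models tested.

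The Suffix share of a gene was compared between the libraries by two-sided Fisher's exact test over 3779 genes with at least 20 Suffix plus Known reads in each. At an adjusted p below 0.05, 0.159% (6) were called, and 79 had an unadjusted p below 0.05. All 6 were among the 763 tested genes with members. This is in part set by how members were chosen, since a call on the share needs Suffix reads, which also make members. Atp5b had 46.9% in replicate 1 and 41.2% in replicate 2, a difference with an adjusted exact p of 8.42e-10, and Actn2 had 31.1% and 23.9% (adjusted exact p = 0.0015). The other 4 were Lmna (2.18% and 27.7%), Hnrnpa2b1 (35.5% and 55.3%), Doc2g (38.3% and 17.1%) and Coro6 (73.7% and 33.3%). Each of these 4 had a chain classed as Suffix in 1 library and otherwise in the other, for example a Lmna chain of 2 exons with 66 Suffix reads in replicate 2 and 92 reads of the subtype Both in replicate 1. Counted with 1 class per chain in both libraries, an alternative added after the data were examined, 2 genes were called, Atp5b and Actn2, and none of the other 4. Over all genes the Suffix share did not differ detectably between the libraries (two-sided Fisher's exact test, p = 0.170).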

How the data were processed

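Long reads were counted per transcript model in 2 heart libraries. The authors deposited whole-number counts of reads per model. Per the file headers, the models carry TALON attributes, and the text deposited with them names mm10 and GENCODE M21. They were not normalized or pooled. Model lengths, exon numbers and coordinates were deposited by the authors too. The aligner, versions and filters are not given in the sources used here.

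Members and gene lists were chosen with earlier results of these data known. A model was the same in both libraries where chromosome, strand and all introns were equal, and parents came from GENCODE M21. Known reads of a gene were the sum over its annotated models, and spike-ins were left out. Named were the 10 most-read members, the 10 genes with most member reads among those exceeding Known reads, the 5 with most missing exons, the 5 most-read starting more than 50 bases upstream, called items and 4 genes per list with most member reads. The other exceeding genes of the lists, chains of unstable class, the series of missing exons, Nppa, Mknk2, Gm45837, Gm28035 and members passing the adjusted p alone were named after their values were seen. Some members and genes that the rule names are not reported here. For log2 ratios 0.5 was added to every count. The exact binomial test took models with at least 10 reads in total. The quasi-likelihood test of edgeR could not be fitted with 1 sample on each side, and the edgeR exact test with a set coefficient of variation served as an alternative. Tests were tried on simulated data. Python 3.11.15, SciPy 1.17.1, R 4.3.3, edgeR 4.0.16 and DESeq2 1.42.0 were used. Alternatives covered read minimums, classes, parents, scaling and leaving out either replicate.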

Additional observations from a re-analysis of the deposited data

How the results depend on the processing

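The number of members depended on the read minimum, with 1832 at 5 reads, 3869 at 3, 743 at 10, 335 at 20 and 962 with 5 reads in both libraries. Of those with at least 10 reads, 721 were seen as Suffix in both. The median number of missing exons was 4, and 3 with the parent of fewest missing exons, weighted by reads, or with at least 10 reads. Suffix reads were 9.07% and 9.17% of Suffix and Known reads, and members alone were 5.24% and 4.97% of all. Members exceeded Known reads in both libraries in 195 genes, and in 182 without members that began in an upstream exon. All Suffix models did in 712 when genes without members entered too. Called members numbered 2, and 1 with at least 5 reads in total, 0 with at least 20, 0 with edgeR's exact test (53 at an unadjusted p below 0.05), 3 with DESeq2 size factors and 15 without the fold minimum. Shares over all models are not given for the other read minimums, edgeR's exact test or DESeq2 size factors. Genes called on their Suffix share numbered 6, 10 against all other models, and 2 with 1 class per chain, where the difference of replicate 2 minus replicate 1 turned to -2.51 percentage points for Lmna, -8.94 for Hnrnpa2b1 and 1.27 for Coro6. Spearman's rho of the share, pooled over both libraries, with length was 0.345, and 0.351 at 50 reads, 0.294 with gene span, 0.340 without genes above 50 exons and 0.312 to 0.316 with 1 replicate left out. With exon number it was 0.549, 0.572 at 50 reads and 0.497 to 0.505 with 1 replicate left out. TMM and DESeq2 factors moved log2 ratios by 0.04 and 0.08, and the adjusted p of the 14-exon Myh6 member by the exact binomial test then rose from 0.0247 to 0.0507 and 0.0651. The settings with 1 class per chain, without members that began in an upstream exon and without genes above 50 exons were added after the data were seen. No paired analysis was possible because there was 1 group. Depth limited the comparison between libraries, since 1267 of the 1832 members had the 10 reads in total that it needed.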
